A study of Mus musculus with 15 samples.

Results

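Complement genes were followed in mouse podocytes that had been stretched mechanically, through 9 of the 55416 genes in the deposited gene count table: C1ra, C1s1, C4b, C3, Cfb, C4bp, Cfi, Clu and Serping1. They were selected with their measured stretch differences in these samples in view, so their stretch differences, and the differences between the unstretched groups that enter those, are given here as a description and carry no test. The samples were 15 RNA-seq libraries of SVI cells, a conditionally immortalised mouse podocyte line that had been differentiated and seeded on flexible silicone membranes. In experiment 1, 6 samples were stretched with a membrane deflection of 5 to 6 mm (low stretch) and 3 stayed unstretched. In experiment 2, 3 samples were stretched with a deflection of 7 to 8 mm (high stretch) and 3 stayed unstretched. All groups share the cell line, the differentiation and the membrane, and no genotype or drug distinguished them. Stretched samples were set only against the unstretched ones of the same experiment, since amplitude and experiment are the same split and cannot be told apart. The labels do not say that replicates were separate cultures, so p-values measure only the spread between these samples, which may be technical.

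Complement is a cascade of plasma and tissue proteins. In the classical pathway the recognition protein C1q activates the proteases C1r and C1s, which cleave C4 and C2 to form an enzyme that cleaves C3, whereas factor B joins cleaved C3 in the alternative pathway and amplifies it. Regulators such as C4b-binding protein, factor I, clusterin and the C1 inhibitor restrain these steps. The liver makes most plasma complement, podocytes and other kidney cells also express several components, and complement deposits are a known feature of many glomerular diseases.

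The libraries held 279.1 to 294.6 M (megacounts) in the unstretched and 262 to 396.7 M in the low-stretch samples of experiment 1, and 172.2 to 264.5 M in the unstretched and 178.2 to 297.6 M in the high-stretch samples of experiment 2. The cells carried a mixed set of podocyte markers. The 8 podocyte markers summed to between 512 and 986 CPM (counts scaled to library size) over the groups, but the slit diaphragm gene Nphs1, at most 1.00 CPM, was low in every sample, and Ptpro did not pass 0.0151 CPM. Synpo gave the highest levels among them and overlapped between stretched and unstretched samples, at 256 to 837 CPM over all samples. Wt1, the gene of a podocyte transcription factor, was at 4.15 to 6.12 CPM without and 1.21 to 4 CPM with low stretch, and at 1.75 to 4.83 CPM without and 0.437 to 0.617 CPM with high stretch. Podxl, the gene of the surface sialomucin podocalyxin, was at 162 to 165 CPM without and 95.7 to 153 CPM with low stretch, and at 170 to 202 CPM without and at most 164 CPM with high stretch. Neither gene overlapped between stretched and unstretched samples in either experiment. The 4 hepatocyte markers summed to at most 0.111 CPM and the 4 endothelial markers to at most 0.227 CPM. The 7 macrophage markers summed to 24.2 to 27.1 CPM in the unstretched and 7.16 to 13.6 CPM in the low-stretch samples, and to 24.3 to 26.5 CPM in the unstretched and 6.37 to 10.3 CPM in the high-stretch samples. Most of that sum was Csf1r, which lay between 22.4 and 25.4 CPM without stretch and between 4.3 and 12 CPM with it, while the defining leukocyte and macrophage genes Ptprc, Adgre1 and Tyrobp did not pass 0.0543, 0.00717 and 0.00348 CPM in any sample. Cd68 went the other way with high stretch, at 1.59 to 2.16 CPM against 0.754 to 1.26 CPM, and overlapped with low stretch. Fcer1g and Lyz2 overlapped between stretched and unstretched samples in both experiments. The 5 mesangial markers, nearly all Pdgfrb, summed to 78.1 to 98.1 CPM against 47.7 to 65.7 CPM with low stretch, and to 115 to 158 CPM against 90.5 to 118 CPM with high stretch. The 4 proximal tubule markers, nearly all the endocytic receptor gene Lrp2, summed to 932 to 1090 CPM against 480 to 763 CPM, and to 319 to 671 CPM against 252 to 428 CPM. The sum of the 3 parietal epithelial markers overlapped between stretched and unstretched samples in both experiments, over a range of 308 to 609 CPM. Of these 3, Cldn1 did not overlap in experiment 1, at 5.67 to 6.82 CPM without and 2.51 to 5.61 CPM with low stretch. The part of these markers in the complement results was not tested, and in bulk RNA fewer cells of a type and less RNA per cell cannot be told apart.

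Of the 9 genes, 7 passed the filter on low counts in both stretch comparisons. Cfb and Serping1 did not. With low stretch 6 of the 7 genes that passed were lower at an adjusted p under 0.05 in edgeR's quasi-likelihood test, which called 5.45% of 21672 genes tested and called 3.6% lower. With high stretch all 7 were lower, in a comparison that called 3.47% of 18524 genes and called 2.16% lower. The ranges of stretched and unstretched samples were separate for 6 of the 7 with low stretch, against 15.3% of all genes tested, and for all 7 with high stretch, against 20.6%. The median log2 fold change over the 7 was -2.10 with low stretch and -3.23 with high stretch, where the median over all genes tested was 0.008 and -0.022. Because the genes were selected on these contrasts, nothing is read from these shares. The counts leaned on single libraries: without unstretched replicate 3 of experiment 1 the low-stretch count was 3, and without high-stretch replicate 3 the high-stretch count was 2.

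**Figure D1:**
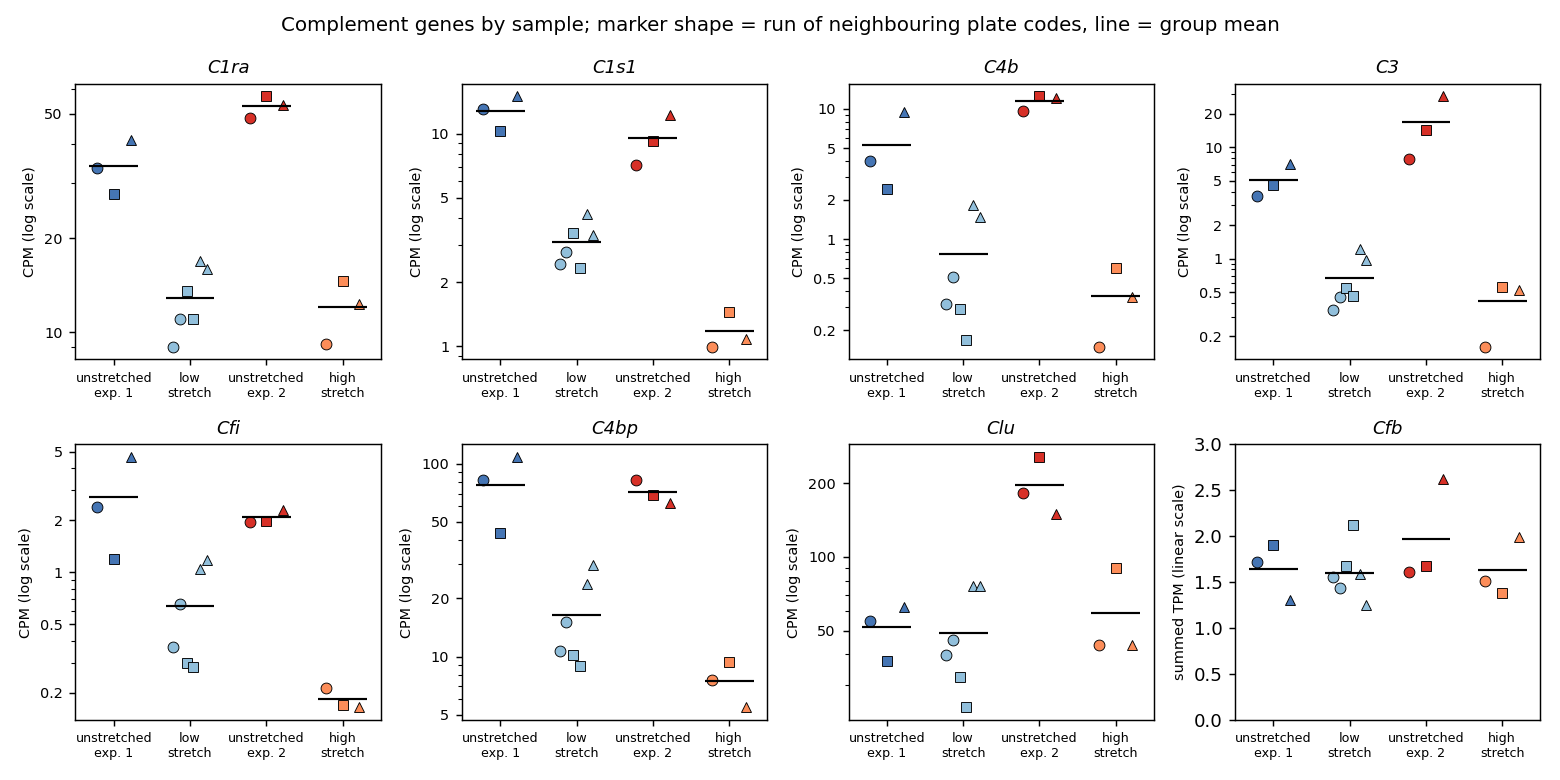
Expression of 8 complement genes in each of the 15 samples, as CPM on a log axis for 7 genes and as summed transcript TPM on a linear axis for Cfb. Points are samples, marker shapes are runs of neighbouring plate codes within an experiment and lines are group means; C1ra, C1s1, C4b, C3, Cfi and C4bp have no stretched sample at or above the lowest unstretched sample of its experiment, whereas Clu overlaps in experiment 1 and Cfb in both.

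The proteases of the C1 complex came from 2 genes of this selection. C1ra (ENSMUSG00000055172), which encodes the protease C1r that is activated first, had 33.5, 27.7 and 41.3 CPM in unstretched replicates 1 to 3 of experiment 1. In the 6 low-stretch samples it ranged from 9.001 to 16.96 CPM with a median of 12.3 CPM. All 6 low-stretch samples lay below all 3 unstretched ones, with the highest values in low-stretch replicates 5 and 6. In experiment 2 the unstretched samples had 48.6, 57.0 and 53.3 CPM and the high-stretch samples 9.14, 14.6 and 12.3 CPM, again without overlap. The fitted log2 fold change was -1.41 (standard error 0.188) with low stretch, a 2.65-fold lower level, and -2.13 (standard error 0.215) with high stretch, a 4.36-fold lower level.

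C1s1 (ENSMUSG00000038521), which encodes the C1s protease that cleaves C4 and C2, had 12.99, 10.29 and 14.99 CPM in the unstretched samples of experiment 1. The low-stretch samples ranged from 2.33 to 4.19 CPM with a median of 3.05 CPM. In experiment 2 C1s1 had 7.14, 9.20 and 12.2 CPM without stretch and 0.999, 1.45 and 1.09 CPM with high stretch. Neither experiment showed overlap, and the 3 high-stretch samples were the lowest of the 15. The log2 fold change was -2.05 (standard error 0.182) with low stretch and -3.004 (standard error 0.296) with high stretch.

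C4b (ENSMUSG00000073418), the gene of the complement component C4 that C1s cleaves, was at 3.99, 2.42 and 9.55 CPM in the unstretched samples of experiment 1. With low stretch it ranged from 0.169 to 1.83 CPM with a median of 0.417 CPM, and low-stretch replicates 5 and 6, at 1.83 and 1.47 CPM, stood above the other 4, none of which passed 0.514 CPM. In experiment 2 the unstretched samples held 9.69, 12.6 and 12.1 CPM and the high-stretch samples 0.150, 0.596 and 0.359 CPM. The groups did not overlap in either experiment. The log2 fold change was -2.80 (standard error 0.686) with low stretch and -4.97 (standard error 0.488) with high stretch. With this spread C4b was called in 3 of the 9 low-stretch fits that each left out 1 sample, and its low-stretch value was -2.08 without unstretched replicate 3 and -3.62 with the replicate numbers as a block.

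C3 (ENSMUSG00000024164), the central component that all pathways cleave, was at 3.62, 4.57 and 7.11 CPM in the unstretched samples of experiment 1. The low-stretch samples ranged from 0.345 to 1.22 CPM with a median of 0.499 CPM. In experiment 2 the unstretched samples had 7.81, 14.2 and 28.9 CPM, a wide spread, and the high-stretch samples had 0.162, 0.560 and 0.524 CPM. Every stretched sample lay below every unstretched sample of both experiments. The log2 fold change was -2.95 (standard error 0.372) with low stretch, 7.73-fold lower, and -5.36 (standard error 0.667) with high stretch, 41.2-fold lower. Without unstretched replicate 3 of experiment 2, which had the highest C3, the high-stretch value was -4.70. In raw counts the C3 value lay between 40 and 130 per library with high stretch and between 1212 and 7927 in the unstretched samples beside them.

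Cfb (ENSMUSG00000090231), the gene of factor B of the alternative pathway, gave discordant readings in the deposited tables. The gene count table held 3 to 18 counts in each library, too few to pass the filter, whereas the summed transcript TPM (a measure that corrects counts for how long a transcript is) was between 1.25 and 2.63 in every library. Mean TPM was 1.64 ± 0.307 (SD, n = 3) and 1.60 ± 0.292 (SD, n = 6) in unstretched and low-stretch samples, and 1.97 ± 0.570 (SD, n = 3) and 1.63 ± 0.319 (SD, n = 3) in unstretched and high-stretch samples. On this TPM scale the stretched and unstretched samples overlapped in both experiments. In the GENCODE M21 annotation, 79.5% of the 2825 exon bases of Cfb lie in exons of Gm20547, a gene annotated over it on the same strand, to which the authors' tables gave at most 0 counts and 0.0214 TPM. The Cfb count is therefore uncertain, and the part of the overlapping gene in it was not tested.

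Among the regulators, C4bp (ENSMUSG00000026405), which encodes the chain of C4b-binding protein that holds cleaved C4, was at 81.9, 43.5 and 108 CPM in the unstretched samples of experiment 1. The low-stretch samples ranged from 8.95 to 29.9 CPM with a median of 12.9 CPM, the highest being replicates 5 and 6. In experiment 2 it was at 82.2, 68.6 and 62.4 CPM without stretch and at 7.56, 9.35 and 5.46 CPM with high stretch. No stretched sample reached an unstretched one in either experiment. The log2 fold change was -2.25 (standard error 0.385) with low stretch, 4.75-fold lower, and -3.23 (standard error 0.252) with high stretch, 9.39-fold lower.

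Cfi (ENSMUSG00000058952), the gene of factor I, a protease that inactivates cleaved C3 and C4, was at 2.39, 1.19 and 4.66 CPM in the unstretched samples of experiment 1. It ranged from 0.283 to 1.18 CPM with a median of 0.513 CPM in the low-stretch samples. Here the groups nearly touched: the highest low-stretch sample, replicate 6 at 1.178 CPM, lay just below unstretched replicate 2 at 1.190 CPM. In experiment 2 the unstretched samples had 1.97, 1.99 and 2.29 CPM and the high-stretch samples 0.214, 0.170 and 0.165 CPM, well apart. The log2 fold change was -2.10 (standard error 0.505) with low stretch and -3.48 (standard error 0.264) with high stretch. Cfi was called in 3 of the 9 low-stretch fits that left out 1 sample and in all 6 of the high-stretch ones, and its low-stretch value was -1.50 without unstretched replicate 3.

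Clu (ENSMUSG00000022037), the gene of clusterin, a secreted chaperone that also blocks the terminal complement complex, differed from the other 6 in experiment 1. It was at 54.9, 37.4 and 62.5 CPM in the unstretched samples and ranged from 24.3 to 76.5 CPM with a median of 42.8 CPM in the low-stretch samples. The groups overlapped, with low-stretch replicates 5 and 6 above every unstretched sample. In experiment 2 Clu was at 183, 256 and 149 CPM without stretch and at 43.7, 90.2 and 43.8 CPM with high stretch, without overlap. The log2 fold change was -0.07 (standard error 0.338) with low stretch and -1.71 (standard error 0.337) with high stretch, and the latter passed the threshold in 3 of the 6 fits that left out 1 sample.

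Serping1 (ENSMUSG00000023224), the gene of the C1 inhibitor, which blocks C1r and C1s, was close to absent. It had between 1 and 2 counts in the unstretched and 0 and 5 in the low-stretch libraries of experiment 1, and between 2 and 9 in the unstretched and 0 and 1 in the high-stretch libraries of experiment 2. At these counts no fold is given. Per length, its mean did not pass 0.0357 TPM in any group, against at least 0.933 TPM for C1s1 and 4.42 TPM for C1ra.

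Samples carry plate codes in the labels, and neighbouring codes form 6 runs with 1 unstretched sample each. Within these runs, each low-stretch sample lay below its unstretched neighbour in 6 of 6 differences for C3, C4b, C1s1, C1ra, Cfi and C4bp, and each high-stretch sample in 3 of 3. Where the ranges of the groups are separate, as for these 6 genes and for Clu with high stretch, such counts are fixed and add nothing. The within-run log2 CPM difference of C3 was between -3.36 and -2.54 with low stretch and between -5.76 and -4.64 with high stretch. For C4b these ranges were -3.79 to -2.37 and -5.95 to -4.38, and for C4bp -2.93 to -1.86 and -3.51 to -2.87. Clu was lower in 4 of 6 differences with low stretch, from -0.62 to 0.29, and in 3 of 3 with high stretch, from -2.07 to -1.51. The 2 Clu differences above 0 were both in the third run of experiment 1, whose unstretched and low-stretch samples had the highest C4b, C4bp and Cfi values of their groups. Cfi spanned -2.66 to -1.85 with low stretch and -3.74 to -3.15 with high stretch.

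**Figure D2:**
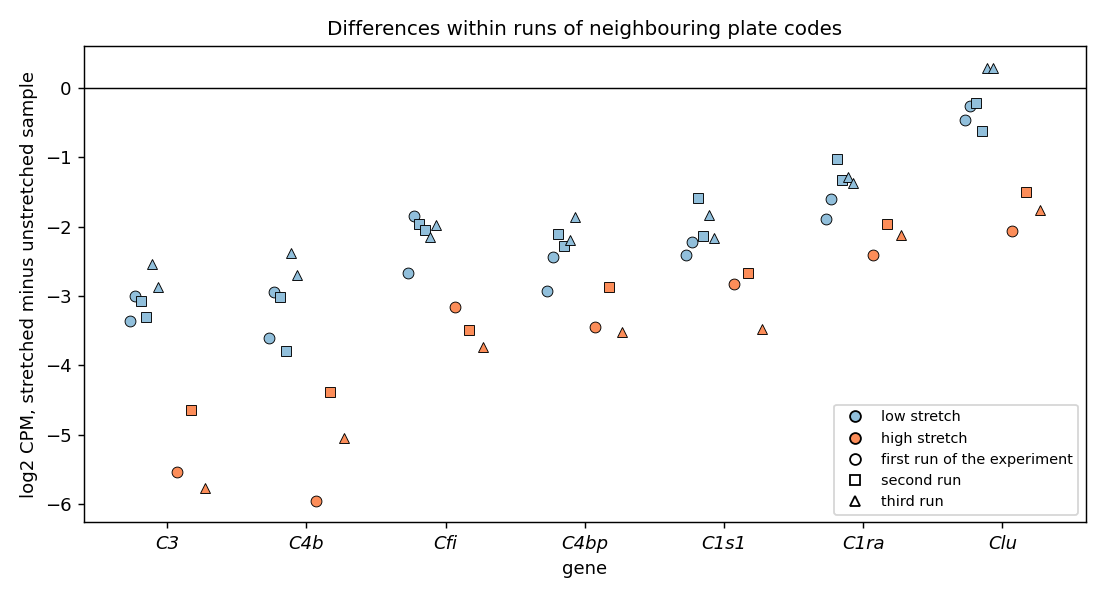
Difference in log2 CPM between each stretched sample and the unstretched sample of its own run of plate codes, for the 7 complement genes that passed the filter on low counts; points are stretched samples and marker shapes are runs. Every point lies below 0 except 2 low-stretch points of Clu, at 0.286 and 0.290, and C3 reaches -5.76 with high stretch.

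The stretch effect was larger in experiment 2 than in experiment 1 in the estimates of all 7 genes. The difference of log2 fold changes, high stretch minus low stretch, was -2.42 (standard error 0.728) for C3, -2.19 (standard error 1.01) for C4b, -1.66 (standard error 0.534) for Clu and -1.40 (standard error 0.721) for Cfi. It was -1.005 (standard error 0.551) for C4bp, -0.97 (standard error 0.331) for C1s1 and -0.74 (standard error 0.305) for C1ra. In the fit of all 15 samples edgeR called 0 of 22015 genes for such a difference (0%), with 547 genes at an unadjusted p under 0.05, and DESeq2 also called 0. With the plate runs as a block edgeR called 3 of 22015 genes for this difference, and C3 and Clu were among them. Both were selected on the stretch contrasts that make up this difference, so their calls carry no test. Each passed in 1 of 5 alternatives other than leaving out a sample and in 0 of 15 that left out 1. The larger effect in experiment 2 went with a different starting level for some of the genes. Between the unstretched groups, experiment 2 minus experiment 1, the log2 difference was 1.91 (standard error 0.274) for Clu, 1.72 (standard error 0.464) for C3, 1.09 (standard error 0.447) for C4b and 0.62 (standard error 0.193) for C1ra, while it was -0.15 (standard error 0.308) for C4bp, -0.41 (standard error 0.435) for Cfi and -0.44 (standard error 0.250) for C1s1. The unstretched groups differed widely across the transcriptome, with 62.5% of 20707 genes called. For Clu the 3 high-stretch samples, at 43.7 to 90.2 CPM, lay in about the range of the experiment 1 samples, at 24.3 to 76.5 CPM, and it was the unstretched samples of experiment 2 that stood above. What differed between the experiments apart from amplitude cannot be told apart from it.

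**Figure D3:**
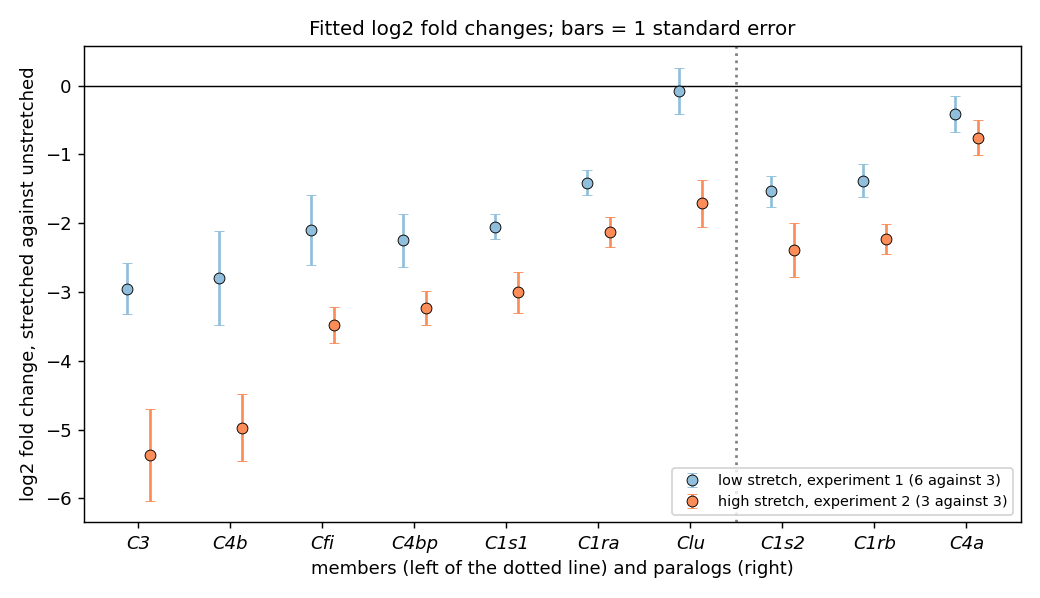
Log2 fold change of stretched against unstretched samples for the 7 complement genes that passed the filter and for 3 paralogs, with bars of 1 standard error, in experiment 1 (low stretch) and experiment 2 (high stretch). C3 lies at -2.95 and -5.36, Clu lies near 0 with low stretch, and the paralog C4a lies closer to 0 than C4b.

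Levels of different genes are compared per length, in TPM. The place of Cfb in these orders is uncertain, since its TPM and its counts are discordant, as given above. In the unstretched samples of experiment 1, C4bp at 71.4 ± 28.4 TPM (SD, n = 3) and Clu at 61.2 ± 15.6 TPM (SD, n = 3) overlapped at the top. C1ra followed at 20.1 ± 3.63 TPM (SD, n = 3) and C1s1 at 14.3 ± 2.24 TPM (SD, n = 3), whose ranges just failed to overlap. Cfi, C4b, C3 and Cfb lay together at means of 2.71, 2.24, 1.92 and 1.64 TPM, each within the spread of its neighbour. In the unstretched samples of experiment 2 Clu was alone at the top at 150.9 ± 17.2 TPM (SD, n = 3), above C4bp at 46.5 ± 7.24 TPM (SD, n = 3). C1ra at 21.1 ± 5.29 TPM (SD, n = 3) and C1s1 at 7.76 ± 3.07 TPM (SD, n = 3) came next, then C3, C4b, Cfb and Cfi with means between 1.43 and 4.71 TPM and with ranges that overlapped between neighbours in that order. With high stretch, Clu was at 43.1 ± 15.2 TPM (SD, n = 3), while C4bp and C1ra overlapped at 4.70 and 4.42 TPM. There Cfb, at 1.63 TPM, exceeded C1s1, at 0.933 ± 0.184 TPM (SD, n = 3), and Cfi, C4b and C3 lay at means of 0.107, 0.101 and 0.0950 TPM with overlapping ranges. In the low-stretch samples Clu, at 54.5 ± 26.2 TPM (SD, n = 6), lay above C4bp, at 14.1 ± 7.57 TPM (SD, n = 6), with touching ranges of 25.6 to 87.0 and 7.60 to 25.9 TPM, whereas C4bp had the higher mean in the unstretched samples of that experiment.

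Near-identical relatives in the mouse genome can share reads with some of these genes, and the counting of reads that match several genes is not given in the sources used here. C4b and C4a transcripts were 96.1% identical over 5367 aligned bases in GENCODE M21, and 16.5% of the 100-base windows of C4b also occurred in C4a, the longest shared stretch being 433 bases. C1ra and C1rb were 98% identical over 2429 aligned bases, with 34.5% of windows shared and a longest shared stretch of 757 bases. C1s1 and C1s2 were 95.9% identical, with 8.02% of windows shared. To show how reads can still separate each pair, the 60-base window with the most differences is printed, taken within the coding sequence of the selected gene. It is given for C4b and C4a (coding positions 2705 to 2764 of C4b, 13 differences) and for C1ra and C1rb (coding positions 1798 to 1857 of C1ra, 11 differences), with the differing bases in capitals.
C4b: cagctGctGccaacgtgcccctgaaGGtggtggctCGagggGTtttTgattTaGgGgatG
C4a: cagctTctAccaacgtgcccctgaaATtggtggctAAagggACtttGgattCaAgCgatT
C1ra: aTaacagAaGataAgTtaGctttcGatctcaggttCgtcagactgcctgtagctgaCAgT
C1rb: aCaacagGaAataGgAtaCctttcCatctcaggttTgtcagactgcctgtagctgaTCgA

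In the deposited counts the ratio of C4b to C4a differed between the groups, whereas the ratio of C1ra to C1rb was nearly constant. The known product of C4a resembles C4 but lacks its usual cleavage by C1s. GENCODE M21 types none of the 10 C4a transcripts in the TPM values as coding, all being processed or retained-intron transcripts. C4a was at 1.15 to 2.20 CPM in the unstretched and 0.855 to 1.92 CPM in the low-stretch samples of experiment 1, and at 1.56 to 1.85 and 0.766 to 1.16 CPM in those of experiment 2. Its log2 fold change of -0.41 (standard error 0.263) with low stretch and -0.75 (standard error 0.258) with high stretch did not pass edgeR's test, at adjusted p of 0.368 and 0.205. C4a was nevertheless lower than in the unstretched sample of its run in 6 of 6 and 3 of 3 differences, and with the plate runs as a block it passed with low stretch (edgeR adjusted p 0.0311). The ratio of C4b to C4a counts had a median of 2.20 in the unstretched and 0.366 in the low-stretch samples, and of 6.53 in the unstretched and 0.468 in the high-stretch samples, with no overlap in either experiment. The ratio of C1ra to C1rb counts lay between 1.37 and 1.81 in all 15 samples. C1rb fell in both comparisons, with a log2 fold change of -1.38 (standard error 0.242, edgeR adjusted p 0.0111) and -2.23 (standard error 0.218, edgeR adjusted p 0.00452). C1s2 fell as well, by 1.53 (standard error 0.227, edgeR adjusted p 0.00628) and by 2.39 (standard error 0.391, edgeR adjusted p 0.0205) on the log2 scale, from a low level of at most 0.759 CPM in any sample. For both paralogs the stretched sample was lower than the unstretched one of its run in 6 of 6 and 3 of 3 differences. Their group ranges were separate in both experiments, as were those of C4a with high stretch, so those counts add nothing. Whether reads were shared within these pairs was not tested, so the values of C1ra and C1rb are uncertain as separate readings.

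**Figure D4:**
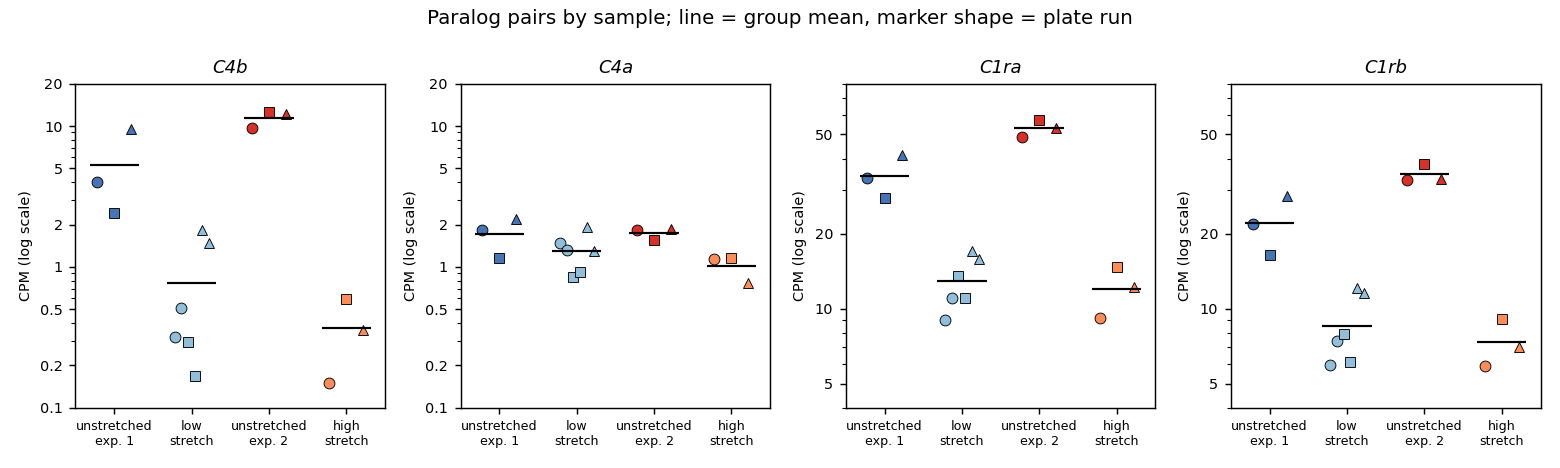
CPM on a log axis in each of the 15 samples for the pairs C4b with C4a and C1ra with C1rb, with shared axis limits within a pair; points are samples, lines are group means and marker shapes are plate runs. C4b falls from at least 2.42 CPM without stretch to at most 1.83 CPM with it while C4a stays between 0.766 and 2.20 CPM, and C1rb follows C1ra.

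The transcript table showed which isoforms carried these genes. All C3 TPM was on 1 coding transcript in every group, its 3 other transcripts being listed at 0, and the leading Clu transcript held a mean of 97.9% to 98.7% of Clu TPM over the 4 groups. The leading Cfi transcript held 94.7% to 100% of Cfi TPM. The leading C4bp transcript held 58.8% of C4bp TPM in the unstretched and 58.7% in the low-stretch samples, and 54.8% in the unstretched and 51.8% in the high-stretch samples, with another coding transcript next at 27.9% to 37.4%. The leading Cfb transcript held 55.3% to 60.4% of Cfb TPM, while its coding transcripts Cfb-201 and Cfb-207 were listed at 0 in every sample. Summed over transcripts, the median log2 difference over the 7 genes, with a pseudocount of 0.1 TPM, was -2.09 with low stretch and -2.87 with high stretch.

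Across the 15 samples, after the mean of each experiment was subtracted from log2 CPM, the profile of C3 was followed most closely by C1ra (Pearson r = 0.980) and C1s1 (r = 0.979) among 12936 genes with at least 1 CPM on average. C4b had r = 0.958, C4bp 0.927, Cfi 0.920 and Clu 0.738. The 5 genes outside the selection with the highest r were Asrgl1 (0.975), Tmem178 (0.973), Plxdc1 (0.969), C1rb (0.968) and Adamts16 (0.967). Cfi and C4bp had a closer match with each other, at r = 0.983, than either had with C3. These values describe 15 samples that share the stretch groups and plate runs, and they carry no test. Only the mean of each experiment was subtracted, so the stretch difference on which the genes were selected enters every r. High ranks of the selected genes are therefore built in.

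The 250 bases before the RefSeq transcription starts are shown for C3 and for C1s1 and C1ra, which had the highest r with it. They were read from GRCm38.p6, 5′ to 3′ on the strand of the gene. RefSeq promoter windows were matched for 4 of the 9 genes, and these coordinates belong to that assembly, not to the mm39 assembly named in the submitters' processing notes. The C3 window is chr17:57228137-57228386 on the minus strand, the C1s1 window chr6:124542360-124542609 on the minus strand, before the upstream one of its RefSeq starts, and the C1ra window chr6:124512371-124512620 on the plus strand. Capitals mark matches to TTNNGNAA on either strand, a loose core of the sites bound by C/EBP factors, which activate many acute-phase genes.
C3: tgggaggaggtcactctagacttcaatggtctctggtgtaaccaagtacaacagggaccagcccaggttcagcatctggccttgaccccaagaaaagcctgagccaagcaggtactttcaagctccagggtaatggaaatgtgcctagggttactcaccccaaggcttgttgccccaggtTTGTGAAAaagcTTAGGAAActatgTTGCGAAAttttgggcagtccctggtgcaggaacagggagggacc
C1s1: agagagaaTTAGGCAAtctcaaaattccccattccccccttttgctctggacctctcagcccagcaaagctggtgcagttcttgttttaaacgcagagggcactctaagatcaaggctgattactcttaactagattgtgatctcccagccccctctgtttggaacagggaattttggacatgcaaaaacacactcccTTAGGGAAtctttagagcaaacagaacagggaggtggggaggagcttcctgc
C1ra: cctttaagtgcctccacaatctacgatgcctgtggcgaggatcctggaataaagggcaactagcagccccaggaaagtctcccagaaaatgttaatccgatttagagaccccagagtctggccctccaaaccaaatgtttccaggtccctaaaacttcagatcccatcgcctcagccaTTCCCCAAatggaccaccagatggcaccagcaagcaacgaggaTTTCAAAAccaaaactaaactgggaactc

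C3 held 3 such matches, beginning 70, 58 and 45 bases before the start, C1s1 held 2, at 242 and 52 bases, and C1ra held 2, at 72 and 29 bases. The window before the other RefSeq start of C1s1, not shown, held 1 match, at 90 bases. The C4bp window held 1 match, at 218 bases. These letters are common: 36.8% of 32851 RefSeq promoter windows of the same length hold at least 1 match. None of the windows of these 4 genes held TTCNNNGAA, the core bound by STAT factors (7.02% of windows), the NF-kappaB motif (3.9%) or TATAAA (12.4%). All were searched on both strands, and no matches of these motifs overlap the capitals shown. A match is a description of letters and no evidence of binding.

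The other genes of the pathway, a list of 47, mostly did not pass the test or were too low to be tested. With low stretch 21 passed the filter and 5 were called by edgeR, all lower, in a comparison that called 5.45% of all genes and called 3.6% lower. The median log2 fold change was -0.31 over the 21 and 0.008 over all genes tested. The 5 called were C1s2 and C1rb, paralogs of selected genes given above, Csmd1, Susd4 and Cfp. Susd4, a membrane protein that inhibits complement, was at 0.976 ± 0.315 CPM (SD, n = 3) without and 0.369 ± 0.164 CPM (SD, n = 6) with low stretch, and it fell by 1.41 on the log2 scale (standard error 0.353, edgeR adjusted p 0.0453). Cfp, the gene of properdin, which stabilises the alternative pathway enzyme, was at 5.53 ± 0.767 CPM (SD, n = 3) without and 3.86 ± 0.517 CPM (SD, n = 6) with low stretch, and it fell by 0.52 on the log2 scale (edgeR adjusted p 0.0456). Csmd1, another membrane regulator, had a log2 fold change of -1.97 (edgeR adjusted p 0.023) at a level of at most 32 counts in a library. Of the 21, 9 had an unadjusted p under 0.05, as did 5104 of all 21672 genes tested. Cfp and Csmd1 did not overlap between the groups and Susd4 did. With high stretch 18 passed the filter and 3 were called, all lower, with a median of -0.26: C1rb, C1s2 and Susd4, which was at 2.22 ± 0.577 CPM (SD, n = 3) without and 0.692 ± 0.221 CPM (SD, n = 3) with high stretch and fell by 1.68 on the log2 scale (standard error 0.333, edgeR adjusted p 0.0373) without overlap between the groups. Of the 18, 7 had an unadjusted p under 0.05, as did 2705 of all 18524 genes tested. At the adjusted threshold 3.47% of all genes were called with high stretch and 2.16% were called lower, with a median log2 fold change of -0.022. Over the fits that left out 1 sample, Susd4 passed in 1 of 9 with low stretch and 2 of 6 with high stretch, C1s2 in 9 of 9 and 2 of 6, and C1rb in 8 of 9 and 5 of 6. With low stretch Cfp passed in 1 of 9 and Csmd1 in 7 of 9. These counts depended on single samples. The low-stretch count was 1, C1s2, without unstretched replicate 3 of experiment 1. The high-stretch count was 0 without high-stretch replicate 3 and 6 without unstretched replicate 3 of experiment 2. With the plate runs as a block, which called 6106 of 21672 genes with low stretch and 1546 of 18524 with high stretch, it was 13 with low stretch, where Cr1l, Itgb2 and C1qbp were called higher, and 6 with high stretch, where Itgb2 and Cd93 were called higher, all named after their values were seen. Among all alternatives other than leaving out a sample, Cd93 passed with high stretch in 5 of 6 and Itgb2 in 4 of 7, the 2 blocks giving the same fit. With 1 sample left out, Cd93 passed in 1 of 6 and Itgb2 in 0 of 6. Over these fits the high-stretch log2 fold change was 2.106 to 3.417 for Cd93 and 0.886 to 1.34 for Itgb2.

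By role, the recognition arm upstream of C1r and C1s was nearly silent: C1qa, C1qb and C1qc had at most 5 counts in any library. C1rl, a C1r-like protease, had a log2 fold change of -0.76 (standard error 0.208, edgeR adjusted p 0.0584) and -1.08 (standard error 0.242, edgeR adjusted p 0.0539), short of the threshold. Among the alternatives other than leaving out a sample it passed in 4 of 7 with low stretch and in 5 of 7 with high stretch, where the 2 blocks gave the same fit. C2, the partner of C4 in the classical enzyme, was low and overlapped between groups, at 0.236 to 0.416 CPM in all samples. In the lectin pathway Masp1, a protease gene, was at 375 ± 33.8 CPM (SD, n = 3) unstretched and 411 ± 56.1 CPM (SD, n = 6) with low stretch, and at 534 ± 43.9 CPM (SD, n = 3) unstretched and 519 ± 29.7 CPM (SD, n = 3) with high stretch, and it passed the test in neither comparison. Per length Masp1 had group means of 169.1 to 195.4 TPM, above those of all 9 selected genes in every group. Terminal pathway genes Hc, C6, C7, C8a, C8b and C9 had at most 5 counts per library. C8g alone of that group passed the filter. The membrane regulator genes Cd59a, with group means of 43.9 to 70.9 CPM, and Cr1l, with group means of 33.0 to 42.7 CPM, passed in neither comparison.

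**Figure D5:**
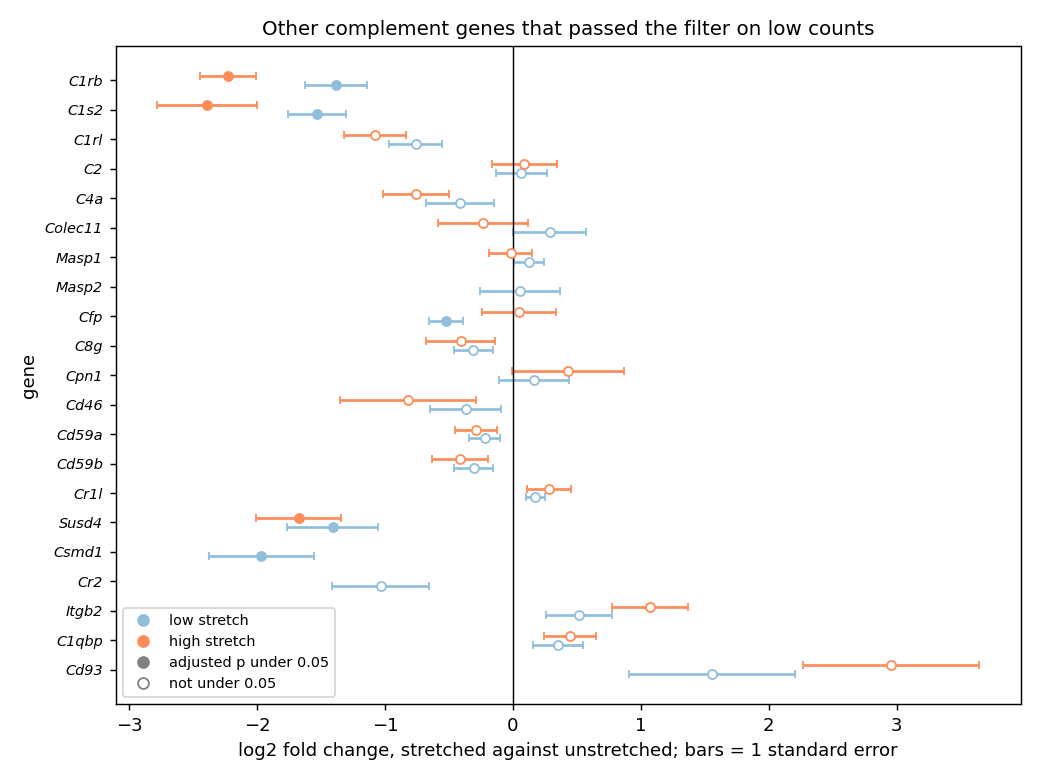
Log2 fold change with 1 standard error for the complement genes outside the selection that passed the filter on low counts, for low stretch and high stretch; filled points have an edgeR adjusted p under 0.05. The filled points are C1rb, C1s2 and Susd4 in both comparisons and Cfp and Csmd1 with low stretch, all below 0.

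Between the unstretched groups 11 of the 21 other genes tested were called, 7 higher and 4 lower in experiment 2, among 62.5% of all genes. Cd46, a membrane regulator, had a log2 difference of -3.04 (edgeR adjusted p 0.00533). For the difference between the stretch effects edgeR called 0 of the 24 other complement genes tested, with 2 at an unadjusted p under 0.05, and DESeq2 called 0.

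Many of these complement genes belong to the acute-phase response, which cytokines such as interleukin 6 drive through STAT3 and C/EBP factors, so a list of 31 genes of that response was read beside them. With low stretch 2 of 19 tested were called, both lower, and with high stretch 4 of 19, all lower, in comparisons that called 5.45% and 3.47% of all genes, the medians over the 19 being -0.26 and -0.39. Serpina3n, a protease inhibitor of the acute phase, was at 1.63 ± 1.04 CPM (SD, n = 3) without and 0.148 ± 0.0847 CPM (SD, n = 6) with low stretch, and it fell by 3.44 on the log2 scale (standard error 0.515, edgeR adjusted p 0.0064). With high stretch Serpina3n was at 0.0550 CPM on average and had the lowest adjusted p of the list, 0.00246 in edgeR's test. Its count is uncertain because close relatives can share its reads. Socs3, a feedback inhibitor induced by STAT3, was at 107.5 ± 9.95 CPM (SD, n = 3) without and 49.65 ± 18.8 CPM (SD, n = 6) with low stretch, and it fell by 1.12 on the log2 scale (standard error 0.262, edgeR adjusted p 0.0352), while in experiment 2 it was at 205 ± 53.3 CPM (SD, n = 3) without and 63.1 ± 18.9 CPM (SD, n = 3) with high stretch, and it fell by 1.68 (standard error 0.279, edgeR adjusted p 0.021). Cp, the gene of the copper oxidase ceruloplasmin, fell with high stretch, from a mean of 142 CPM and a spread of 85.8 CPM (SD, n = 3) to 38.7 ± 4.73 CPM (SD, n = 3), with an edgeR adjusted p of 0.0447. Steap4, a metalloreductase, had at most 1 count in a high-stretch library against 9 to 17 in the unstretched ones. It passed the filter on low counts only through the unstretched group, so a lower call was close to fixed in advance. Steap4 is 1 of the 4 called with high stretch, and nothing is read from its call. The cytokine genes Il6, Il1b, Tnf and Ifng did not pass the filter in either comparison. Serpina3n and Socs3 in both comparisons, and Cp with high stretch, had every stretched sample below every unstretched one. Of the 11 transcription factors and feedback genes, Stat3 and Cebpb included, Socs3 was the one called in each stretch comparison.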

How the data were processed

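Poly(A) RNA of 15 samples was sequenced as stranded paired-end libraries, per the labels' protocols. The authors deposited raw gene counts (55416 genes, of which 52083 were given a symbol from GENCODE M21 or the gene name table) and transcript TPM values (140789 transcripts). STAR 2.7.5c, featureCounts of Subread 2.0.0, Salmon 1.9.0, DESeq2 1.38.3 and the mm39 assembly are named in the submitters' processing notes. How strand, read pairs and reads matching several genes were counted is not given in the sources used here. Genes with no symbol took at most 0.231% of a sample's counts.

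Groups came from the sample titles. The gene test was that of edgeR 4.0.16, run in R 4.3.3, with TMM scaling, filterByExpr, estimateDisp and the quasi-likelihood F test with Benjamini-Hochberg adjustment over all genes tested, threshold 0.05. Each stretched group entered a fit only with unstretched samples from the same experiment. The difference between stretch effects was a contrast over all 15 samples. CPM used TMM-scaled library sizes, and log2 CPM a prior count of 2. Promoter and paralog sequences were read with Python 3.11.15 and Biopython 1.88. The tests were first tested on simulated data.

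The 9 genes and every list were chosen with earlier results of these data known. Named were the 9 genes and 3 paralogs whatever their values, up to 12 other complement genes and up to 6 acute-phase genes per stretch comparison among those called, and the 5 genes most like C3. Alternatives were DESeq2 1.42.0, RLE size factors, no filter, a minimum mean count of 100, one fit of all 15 samples, a replicate block, a plate run block, each sample left out, and summed TPM with pseudocounts of 0.01, 0.1 and 1. Values of some listed genes are not reported here.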

Additional observations from a re-analysis of the deposited data

How the results depend on the processing

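The 14 log2 fold changes of the 7 complement genes moved by less than the spread between replicates in all 203 alternative values computed. That spread was the standard deviation of log2 CPM between single samples of a group, a wide margin for a difference of group means. Under it C4b with low stretch counted as unmoved at -2.80 in the main fit and -3.62 with the replicate block. The 203 values are therefore no measure of stability. The median over the 7 was -2.10 with low stretch; it was -2.50 with the replicate block, -1.24 from TPM with a pseudocount of 1 TPM and between -2.45 and -1.93 when single samples were left out. With high stretch the median of -3.23 was -2.003 from TPM with that pseudocount and between -3.18 and -3.02 when samples were left out. Between the unstretched groups the median of 0.62 lay between 0.60 and 1.29 when single samples were left out, the highest without unstretched replicate 3 of experiment 1, and was 0.485 with a mean count of at least 100. The number of the 7 called lay between 3 and 6 with low stretch and between 2 and 7 with high stretch when samples were left out. Of the other complement genes 5 were called with low stretch, against 3 with all 15 samples in one fit, 2 with the replicate block, 13 with the plate run block and 1 to 5 without single samples. With high stretch 3 were called, against 6 with DESeq2, 5 with no filter, 6 with all 15 samples, 6 with the replicate block and 0 to 6 without single samples. Between the unstretched groups 11 were called, against 7 with a mean count of at least 100 and 5 to 20 without single samples, the most without unstretched replicate 3 of experiment 2. For the difference between stretch effects 0 of the other complement genes were called under every alternative run, while over all genes the plate run block called 3, C3 and Clu among them. As C3 and Clu were selected on these contrasts, their calls carry no test. The cause of these shifts was not tested, though fewer samples enter some fits. Replicate numbers do not pair the samples in experiment 1: deviations of same-numbered samples correlated between -0.63 and 0.581 there, where the block drops 3 low-stretch samples. Samples of the same plate run in experiment 1 correlated between 0.56 and 0.814. In experiment 2 replicate numbers and plate runs give the same pairs, and these correlated between -0.504 and 0.828. Plate runs therefore did not hold like samples throughout experiment 2. Depth limits Serping1, Steap4 and Csmd1, which rest on few counts.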

Other observations

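The acute-phase list was also read between the unstretched cells of experiment 1 and experiment 2. Of the 20 genes tested, edgeR called 12, 10 of them higher in experiment 2 and 2 lower. The comparison called 62.5% of all genes, so this count is near the share over all genes and is no result about the list. Cebpd and Cebpb, which encode C/EBP transcription factors, were higher by 2.05 and 1.61 on the log2 scale (edgeR adjusted p 0.00533 for each), Lcn2, an iron-binding acute-phase protein gene, by 1.94 (edgeR adjusted p 0.00812) and Socs3 by 0.92 (edgeR adjusted p 0.00892). Of the selected genes, Clu, C3, C4b and C1ra had higher estimates in the same unstretched samples, as given above. C4bp, Cfi and C1s1 had lower estimates, at -0.15, -0.41 and -0.44 on the log2 scale. A link between these genes and the acute-phase list was not tested. The experiments differ in everything that separated them, so no source of this difference can be told apart.

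Neither receptor gene for interleukin 6 passed the test with stretch. Il6st, the shared signalling chain, had a log2 fold change of -0.75 (standard error 0.196, edgeR adjusted p 0.0514) with low stretch and -0.95 (standard error 0.230, edgeR adjusted p 0.0685) with high stretch. Il6ra, the binding chain, had values of 0.45 (standard error 0.155, edgeR adjusted p 0.11) and 1.12 (standard error 0.325, edgeR adjusted p 0.127), its groups not overlapping in either experiment.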
